A study of Mus musculus with 6 samples.

Results

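The matrix metalloproteinases, the ADAM and ADAMTS proteases and their tissue inhibitors were followed in pancreatic islets of 2 obese mouse strains. Members were all non-control probes whose gene name in the scanner files is Mmp, Timp, Adam or Adamts followed by digits and at most a final letter. The rule gave 124 of 41174 probes and 73 of 27827 gene names. Of these 73 genes 21 are Mmp genes, 4 Timp genes, 30 Adam genes and 18 Adamts genes. The probe positions bear the names out, since 122 of 122 probes whose name has a chromosome in RefSeq lie on that chromosome.

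The diabetes-prone strain, by its label, is NZO/HiBomDife, a New Zealand Obese line (NZO below). The diabetes-resistant strain is C57BL/6.V-Lepob/ob (B6-ob/ob below), whose leptin is not functional. All mice were male, had eaten a fatty diet free of carbohydrate until they were 18 weeks old, and gave their islets 48 h after carbohydrate had been put into the diet. RNA of each sample was read on its own 1-colour oligonucleotide array, with NZO replicates 10, 11 and 12 set against B6-ob/ob replicates 4, 5 and 6. Since no label tells if islets of several animals were pooled, the p-values describe only how these samples scatter, part of which may be technical. Because islets from before the diet change were not analysed here, each value compares the strains at 1 time.

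Matrix metalloproteinases are zinc proteases that are made as inactive precursors and cut collagens, other matrix proteins and many secreted proteins. Membrane-type members such as MMP14 sit on the cell surface, where MMP14 activates the precursor of MMP2 with the help of TIMP2. TIMPs block the active site of most MMPs, and TIMP3 also blocks several ADAM and ADAMTS proteases. ADAMs are membrane proteases that release growth factors, cytokines and receptors from the cell surface, while ADAMTS proteases are secreted and process procollagens and proteoglycans. In the pancreas much of this system is made by stellate cells, fibroblasts and leukocytes around and inside the islet, while ADAM10 and ADAM17 are made by most cell types.

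The Mmp cluster of chromosome 9 shows how differently neighbours in this family were read, and its promoters are given first. The probes of Mmp13, Mmp12, Mmp3, Mmp1a, Mmp10, Mmp8, Mmp20 and Mmp7 lie between bases 7282762 and 7697700 of chromosome 9 (mm9), and 4 of these 8 genes were bright enough to be tested. In the RefSeq promoters (GRCm38.p6) the 250 bases before the annotated start were searched on both strands for TGANTCA. This is a loose form of the site of AP-1, with any base in the middle (the motif is its own reverse complement apart from N). AP-1 is the dimer of Fos and Jun proteins that is known to drive several of these genes. The motif was in 7 of the 8 genes of the cluster. It was in 3 of the 33 other members with a promoter in the table (Adam19, Adam25 and Adam29), which is 9.09%, and in 7.82% of all 27025 genes. The stretches around the site are shown 5′ to 3′ on the gene's strand, with the motif in capitals, because the same letters stand before a gene that rose, genes that did not pass and genes above background on no array.

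Mmp13: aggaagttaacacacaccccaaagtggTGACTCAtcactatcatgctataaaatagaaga
Mmp12: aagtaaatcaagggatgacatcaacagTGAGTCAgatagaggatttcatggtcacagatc
Mmp3: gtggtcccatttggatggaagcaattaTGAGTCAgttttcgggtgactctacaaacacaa
Mmp1a: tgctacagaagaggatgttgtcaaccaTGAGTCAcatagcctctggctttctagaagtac
Mmp10: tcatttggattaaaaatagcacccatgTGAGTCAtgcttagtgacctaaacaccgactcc
Mmp20: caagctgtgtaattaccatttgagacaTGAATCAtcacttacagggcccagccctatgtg
Mmp7: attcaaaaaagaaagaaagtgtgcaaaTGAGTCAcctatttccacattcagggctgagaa

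These 7 stretches lie on the plus strand of chromosome 9 in GRCm38.p6, from chr9:7272452-7272511 (Mmp13) to chr9:7692000-7692059 (Mmp7). The motif begins 35 bases before the start in Mmp13, 44 in Mmp12, 46 in Mmp3, 63 in Mmp10 and Mmp7, 73 in Mmp1a and 95 in Mmp20. The middle base is A in Mmp20 and C or G in the others. Mmp8 held no such letters in its window. A match describes letters only.

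Levels are log2 intensities relative to the 75th percentile of the same array, and a probe entered the test when 3 or more of the 6 arrays had it well above background by the scanner software's own flag. A level can be compared between arrays for 1 probe, but not between probes. Differences are NZO minus B6-ob/ob on the log2 scale with the standard error (SE) of limma, and adjusted p-values are Benjamini-Hochberg values over 16418 genes, with a threshold of 0.05. These directions follow the labels of the scanner files and oppose those of the deposited value table, whose columns each match an array of the opposite strain (correlation 0.966 to 0.984 with that array, and -0.778 to -0.523 with the array of its own label). The scanner labels were checked with H2-Ea and Ifi202b, a class II gene that C57BL/6 mice lack and an interferon gene known to be high in NZO. Both were well above background on 3 of 3 NZO arrays and on none of 3 B6-ob/ob arrays.

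Most of the members that could be read were higher in NZO islets. Of 73 genes 41 were tested, 28 were above background on no array, and 4 (Adam19, Adam6, Adamts16 and Mmp16) were above background on 1 or 2 arrays. Of the 41 tested, 23 rose and 3 fell at an adjusted p under 0.05, while 13.2% of all 16418 genes rose and 9.0% fell (22.2% in either direction). The median difference was 1.16 over the 41 tested members and -0.03 over all genes tested. In 26 of the 41 members the 3 NZO arrays lay wholly above the 3 B6-ob/ob arrays, against 20.7% of all genes, and in 4 they lay wholly below, against 20.4%. Among the 32 members above background on all 6 arrays, 18 rose and 2 fell. When only probes above background on all 6 arrays were tested, these counts were again 18 and 2, while 1762 of 14802 genes rose and 1318 fell. By family, 7 of 11 tested Mmp genes, 4 of 4 Timp genes, 9 of 13 Adamts genes and 3 of 13 Adam genes rose. Without B6-ob/ob replicate 5 the counts over all genes were 1298 higher and 635 lower in place of 2165 and 1478, and the members' count was 17 higher and 2 lower. Leaving out NZO replicate 11 gave 1397 and 740 over all genes and 17 and 2 members, and leaving out NZO replicate 10 gave 814 lower over all genes, and 19 and 2 members.

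**Figure D1:**
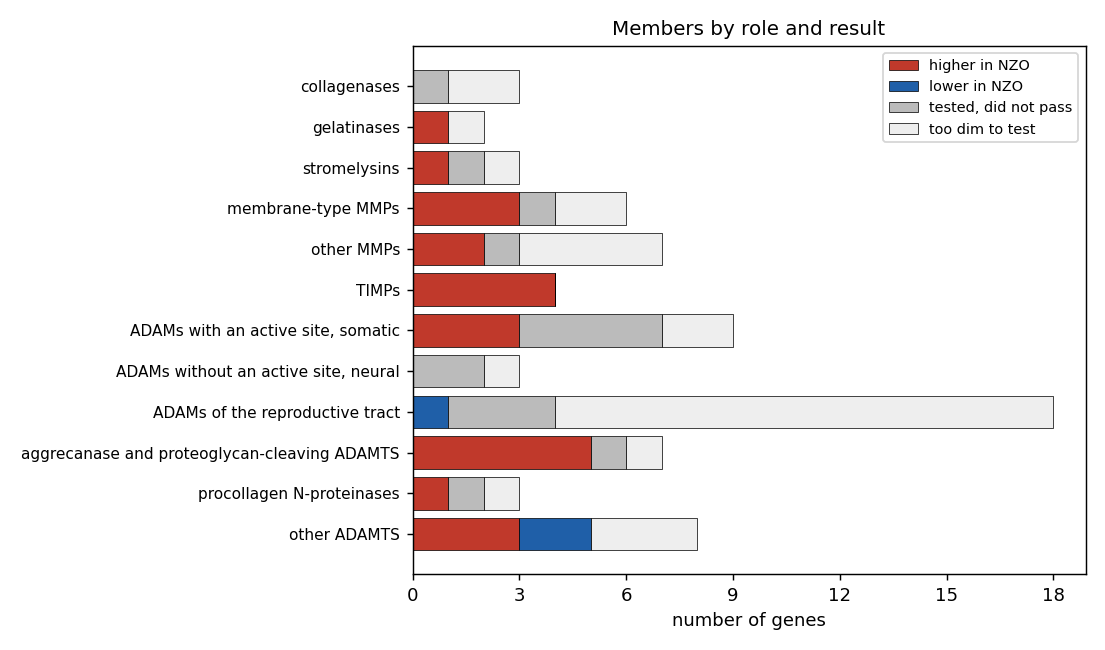
Number of member genes in each role group (x axis, genes), coloured by result in the strain comparison at an adjusted p under 0.05. The TIMPs (4 of 4 higher) and the proteoglycan-cleaving ADAMTS genes (5 of 7 higher) are mostly red, while 14 of the 18 reproductive-tract ADAMs were too dim to test.

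**Figure D2:**
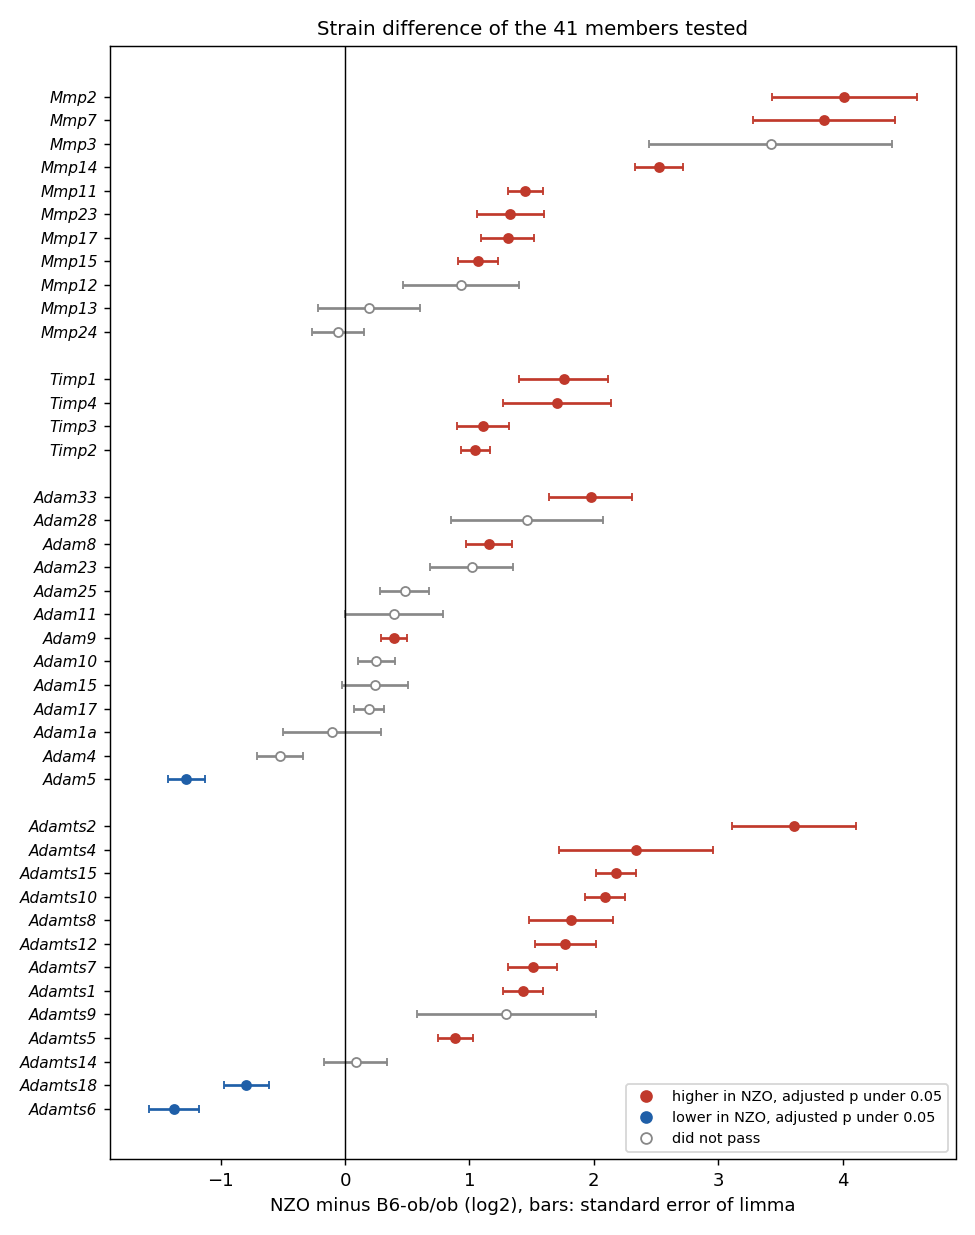
Difference between strains (x axis, log2, NZO minus B6-ob/ob) with the standard error of limma for the 41 tested members, ordered by size within each family. Filled red points rose (23) and filled blue points fell (3) at an adjusted p under 0.05, and open points did not pass.

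Among the Mmp genes the gelatinase Mmp2 and its membrane-bound activator Mmp14 were both higher in NZO. For Mmp2, whose product cuts denatured and basement-membrane collagen, the level ran, by replicate number, -1.33 (10), -1.72 (11) and -0.54 (12) in NZO and -3.95 (4), -5.71 (5) and -5.96 (6) in B6-ob/ob, the order kept for the genes that follow. All NZO arrays lay above all B6-ob/ob arrays, of which only replicate 4 was above background. The difference was 4.01 ± 0.58 (SE, 3 against 3 arrays, adjusted p = 0.0054), but its size rests on B6-ob/ob signal at background. After normexp background correction it was 1.62 with quantile normalisation and 1.73 with 75th percentile scaling, and passed in both (limma adjusted p = 0.0025 and 0.0022). For Mmp14 the levels were 0.60, 0.82 and 0.53 in NZO and -1.50, -2.04 and -2.09 in B6-ob/ob. Here every array was above background and the strains were far apart relative to their spread, with a difference of 2.53 ± 0.19 (limma adjusted p = 0.00060). The other gelatinase, Mmp9, typical of neutrophils and osteoclasts, was above background on no array of either strain with either of its 2 probes.

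The matrilysin Mmp7, made by ductal and other glandular epithelium, was also higher in NZO. Its levels were -1.27, -0.44 and -2.30 in NZO and -4.45, -5.09 and -6.01 in B6-ob/ob, where again only replicate 4 was above background. NZO replicate 12 was the lowest of its strain, yet it lay above every B6-ob/ob array, and the difference was 3.85 ± 0.57 (adjusted p = 0.0057). With normexp correction it was 1.46 and 1.6 under the same scalings and passed in both (limma adjusted p = 0.012 and 0.0048). Of the tested genes of the chromosome 9 cluster, Mmp7 alone passed. Mmp3 (stromelysin-1), which cuts proteoglycans and activates other MMPs, had levels of -2.84, -3.68 and -2.85 in NZO and -4.19, -7.70 and -7.75 in B6-ob/ob. The strains did not overlap, but B6-ob/ob replicate 4 stood far above replicates 5 and 6, which were below background, and the difference of 3.42 ± 0.98 did not pass (adjusted p = 0.053). It passed in 6 of 18 alternatives: without replicate 4, which leaves the B6-ob/ob side to background alone (limma adjusted p = 0.00066), with slide as a random block (0.049), with a trended and robust prior (0.037), with array weights (0.0029), and after both normexp corrections, where it was 0.71 and 0.88 (limma adjusted p = 0.025 and 0.020). The macrophage elastase Mmp12 (0.93 ± 0.47, adjusted p = 0.22) and the collagenase Mmp13 (0.19 ± 0.41, adjusted p = 0.79) overlapped between strains, and Mmp12 passed with array weights alone (1.59, limma adjusted p = 0.012). The other 4 genes of the cluster, Mmp1a, Mmp10, Mmp8 and Mmp20, were above background on no array, although 3 of them carry the AP-1 letters shown above.

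Further Mmp genes rose by smaller amounts with little spread. Mmp11 (stromelysin-3), a stromal protease that is activated inside the cell by furin, had levels of -2.32, -2.67 and -2.40 in NZO and -3.97, -3.78 and -3.99 in B6-ob/ob, a difference of 1.45 ± 0.14 (limma adjusted p = 0.0012). Mmp15, a membrane-type MMP, read -1.15, -1.12 and -1.53 in NZO and -2.34, -2.18 and -2.48 in B6-ob/ob. Mmp17, anchored to the membrane by a glycolipid, read -1.16, -1.61 and -1.34 against -2.31, -2.75 and -2.97. In both genes the strains were separate, with differences of 1.07 ± 0.16 (limma adjusted p = 0.0057) and 1.31 ± 0.21 (limma adjusted p = 0.0079). Mmp23 had nearly equal NZO levels of -1.98, -2.03 and -1.90, and B6-ob/ob levels of -2.68, -3.57 and -3.65, of which replicate 4 was the highest. Its difference of 1.33 ± 0.27 (limma adjusted p = 0.017) did not pass without NZO replicate 10, 11 or 12 or without B6-ob/ob replicate 5 (limma adjusted p = 0.057, 0.058, 0.056 and 0.071). By contrast Mmp24, a membrane-type MMP mainly of neurons, overlapped between strains (-0.06 ± 0.21, limma adjusted p = 0.88).

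**Figure D3:**
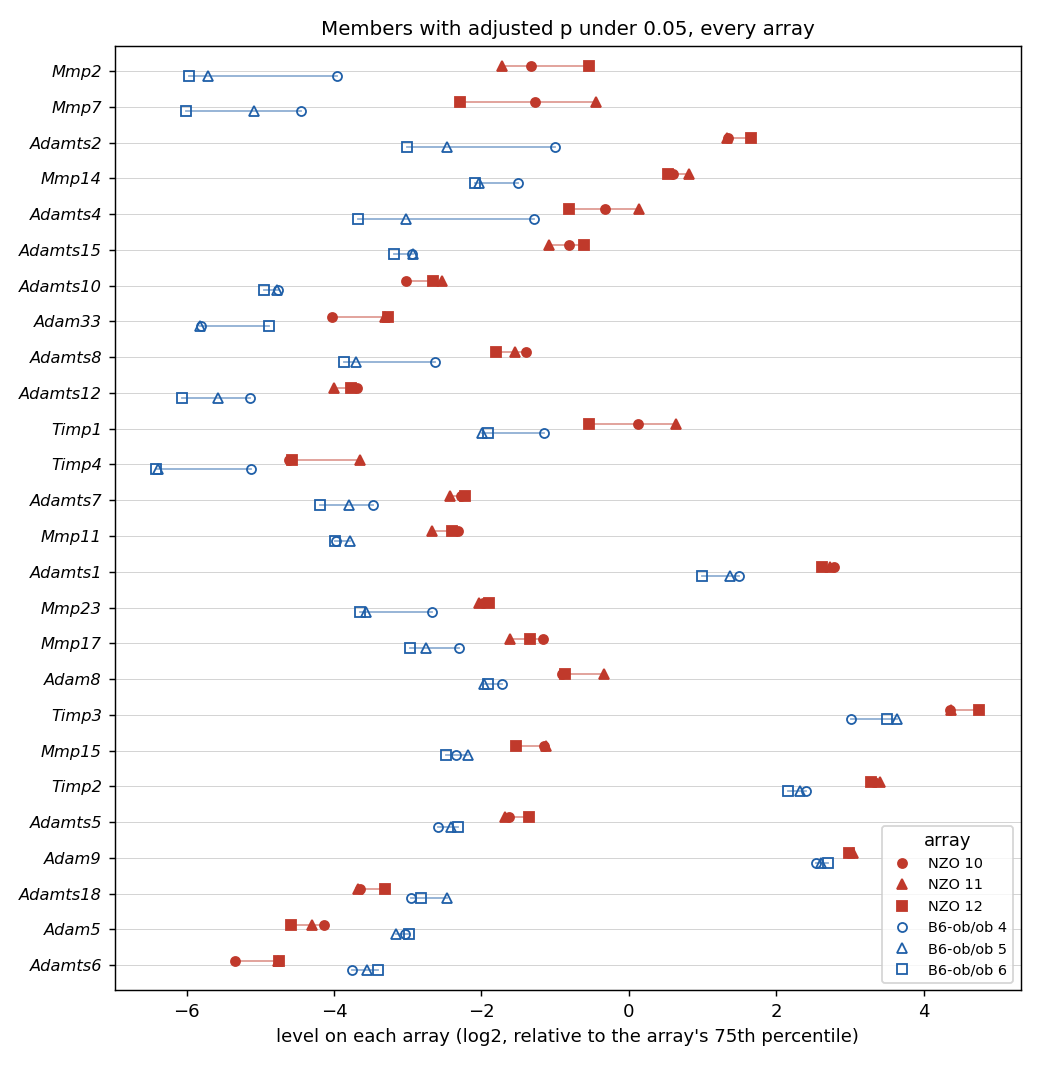
Level on each of the 6 arrays (x axis, log2 relative to the 75th percentile of the array) for the 26 members that passed, ordered by their difference. In every row the 3 filled NZO symbols and the 3 open B6-ob/ob symbols do not overlap, and levels are comparable only within a row.

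The inhibitors rose with the proteases. Timp1, the inducible inhibitor of most secreted MMPs, had levels of 0.12, 0.64 and -0.54 in NZO and -1.15, -2.0 and -1.91 in B6-ob/ob. The strains were separate although NZO replicate 12 and B6-ob/ob replicate 4 came near each other, and the difference was 1.76 ± 0.36 (limma adjusted p = 0.018). Timp2, which blocks MMP2 and also helps MMP14 to activate it, read 3.33, 3.40 and 3.29 in NZO and 2.40, 2.32 and 2.15 in B6-ob/ob. Its arrays agreed closely within each strain, and the difference was 1.05 ± 0.12 (limma adjusted p = 0.0021). Timp3, which is bound to the matrix, read 4.36, 4.37 and 4.75 in NZO and 3.01, 3.64 and 3.50 in B6-ob/ob, a difference of 1.11 ± 0.21 (limma adjusted p = 0.013). Timp4 read -4.61, -3.65 and -4.57 in NZO but was above background on no B6-ob/ob array (-5.13, -6.39 and -6.42). Its level was therefore at least 2.16-fold higher in NZO, taking the higher of the dim probe's own signal and the lowest signal well above background on each B6-ob/ob array, with a fitted difference of 1.70 ± 0.43 (limma adjusted p = 0.037).

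The calls of Timp1 and Timp4 were lost with fewer arrays. Without NZO replicate 10 or 11 or B6-ob/ob replicate 5 Timp1 did not pass (limma adjusted p = 0.060, 0.052 and 0.072), while its difference was 1.73, 1.48 and 1.6. Timp4 did not pass without NZO replicate 10, 11 or 12 or B6-ob/ob replicate 5 or 6 (limma adjusted p = 0.071, 0.11, 0.070, 0.13 and 0.084), where its difference was 1.39 to 1.87. It did not pass with slide as a fixed block (0.11), without a filter on dim probes (0.064), or after normexp correction, where it was 0.25 (limma adjusted p = 0.13) and 0.42 (0.10). Timp2 and Timp3 passed in each of the 19 alternatives that gave a test.

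The ADAMTS genes held the greatest number of members that rose, most of them proteases of proteoglycans. Adamts2, the main procollagen N-proteinase, which trims the ends of fibrillar procollagens, had levels of 1.34, 1.33 and 1.66 in NZO and -1.0, -2.47 and -3.02 in B6-ob/ob. Every array was above background, the B6-ob/ob arrays were spread more widely than the NZO arrays, and the difference was 3.61 ± 0.50 (limma adjusted p = 0.0045), or 12.2-fold. Its relative Adamts14 overlapped between strains (0.08 ± 0.26, limma adjusted p = 0.85), and Adamts3 was above background on no array.

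Of the 6 tested genes of the aggrecanase and proteoglycan-cleaving group, which cut aggrecan and versican, 5 rose. Adamts1 read 2.79, 2.73 and 2.62 in NZO and 1.49, 1.37 and 0.99 in B6-ob/ob (difference 1.43 ± 0.16, limma adjusted p = 0.0021). Adamts5, its neighbour on chromosome 16, read -1.63, -1.69 and -1.35 against -2.60, -2.42 and -2.32 (0.89 ± 0.14, limma adjusted p = 0.0077). Both pairs of groups were separate with a small spread. Adamts15 and Adamts8 also lie next to each other, with probes from base 30707033 to 30770279 of chromosome 9 (mm9). Adamts15 read -0.81, -1.09 and -0.61 in NZO and -2.95, -2.92 and -3.19 in B6-ob/ob, which gave the smallest adjusted p among the members (2.18 ± 0.16, limma adjusted p = 0.00055). Adamts8 read -1.39, -1.54 and -1.81 against -2.62, -3.71 and -3.86, with B6-ob/ob replicate 4 above the others of its strain. Its difference of 1.82 ± 0.34 (limma adjusted p = 0.013) did not pass without NZO replicate 11 (limma adjusted p = 0.052) or B6-ob/ob replicate 5 (limma adjusted p = 0.057).

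Adamts4, the inducible aggrecanase, varied most among the members that rose in this group. It read -0.32, 0.14 and -0.81 in NZO and -1.29, -3.03 and -3.68 in B6-ob/ob, so replicate 4 lay nearer to the NZO arrays than to replicate 6. The difference of 2.34 ± 0.62 passed (limma adjusted p = 0.042), but not without any 1 of the 3 NZO arrays (limma adjusted p = 0.11, 0.13 and 0.073 for replicates 10, 11 and 12) or without B6-ob/ob replicate 5 (0.14) or 6 (0.076), nor with slide as a fixed block (0.086) or without a filter on dim probes (0.071). Adamts9 overlapped between strains, because B6-ob/ob replicate 4 (-0.25) was higher than NZO replicates 10 (-0.65) and 12 (-1.12), and it did not pass (1.30 ± 0.72, limma adjusted p = 0.26). Without B6-ob/ob replicate 4 its difference was 2.12 and passed (limma adjusted p = 0.013), as it did with array weights (1.89, limma adjusted p = 0.018).

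The other ADAMTS genes went both ways. Adamts10, whose product acts on fibrillin microfibrils, read -3.02, -2.53 and -2.66 in NZO and -4.76, -4.77 and -4.95 in B6-ob/ob (2.09 ± 0.16, limma adjusted p = 0.00061). Adamts7 and Adamts12, which cut the cartilage oligomeric matrix protein, read -2.28, -2.43 and -2.22 against -3.47, -3.80 and -4.19, and -3.69, -4.00 and -3.77 against -5.14, -5.57 and -6.06. The differences were 1.51 ± 0.20 (limma adjusted p = 0.0038) and 1.77 ± 0.24 (limma adjusted p = 0.0045). The tested probe of Adamts12 was above background on no B6-ob/ob array and was at least 2.97-fold higher in NZO, while another probe of the gene was above background on 1 B6-ob/ob array and on no NZO array. Adamts6 fell: it read -5.34, -4.76 and -4.74 in NZO, where only replicate 12 was above background, and -3.75, -3.55 and -3.40 in B6-ob/ob (-1.38 ± 0.20, limma adjusted p = 0.0055). With normexp correction and 75th percentile scaling its difference was -0.17 and did not pass (limma adjusted p = 0.44). Adamts18 fell too, from -2.96, -2.46 and -2.83 in B6-ob/ob to -3.65, -3.68 and -3.31 in NZO (-0.79 ± 0.18, limma adjusted p = 0.026), but did not pass without NZO replicate 10 or 11 or B6-ob/ob replicate 5 (limma adjusted p = 0.088, 0.096 and 0.084), with slide as a fixed block (0.055), without a filter on dim probes (0.051) or with the same normexp setting (-0.24, 0.27).

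Of 13 tested ADAM genes 3 rose and 1 fell, beside 13.2% and 9.0% of all genes. The sheddases Adam10 and Adam17, which release Notch fragments, tumour necrosis factor and ligands of the epidermal growth factor receptor, did not pass. Adam10 read -3.82, -3.75 and -3.96 in NZO and -3.83, -4.25 and -4.19 in B6-ob/ob, and Adam17 read -0.22, -0.19 and -0.48 against -0.47, -0.50 and -0.48. The strains overlapped in both, with differences of 0.25 ± 0.15 (limma adjusted p = 0.30) and 0.19 ± 0.12 (limma adjusted p = 0.32). With array weights Adam10 passed (0.41 ± 0.11, limma adjusted p = 0.024). A p that misses the threshold does not show that the levels were equal.

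Adam8, a protease of activated leukocytes, read -0.90, -0.34 and -0.87 in NZO and -1.72, -1.96 and -1.91 in B6-ob/ob (1.16 ± 0.18, limma adjusted p = 0.0073). Adam33, known from mesenchymal cells, read -4.02, -3.31 and -3.27 against -5.81, -5.82 and -4.89, where only B6-ob/ob replicate 6 was above background (1.97 ± 0.33, limma adjusted p = 0.0088). Adam9, a widely expressed sheddase, had the smallest difference among the members that rose. Its levels were 2.99, 3.04 and 2.98 in NZO and 2.54, 2.60 and 2.69 in B6-ob/ob, separate but close (0.39 ± 0.10, limma adjusted p = 0.041). It did not pass without NZO replicate 10, 11 or 12 or B6-ob/ob replicate 4 or 5 (limma adjusted p = 0.12, 0.14, 0.085, 0.086 and 0.15), with slide as a fixed block (0.13), after quantile normalisation (0.062), in the authors' value table with its sign turned (0.060) or without a filter on dim probes (0.10).

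On chromosome 8 the probe of Adam5 lies near that of Adam9, with Adam32, which was too dim to test, between them, and Adam5 went the other way. Adam5, best known from sperm, read -4.13, -4.29 and -4.58 in NZO and -3.04, -3.15 and -2.98 in B6-ob/ob (-1.28 ± 0.15, limma adjusted p = 0.0024). After normexp background correction with 75th percentile scaling it differed by -0.35 and did not pass (limma adjusted p = 0.095). It was above background on all 6 arrays, and of the 18 ADAM genes of the reproductive tract it was the only 1 to pass, with 14 too dim to test. Of the ADAMs that lack an active site, Adam23 (1.02 ± 0.33, limma adjusted p = 0.077) and Adam11 (0.40 ± 0.39, limma adjusted p = 0.53) did not pass, and Adam22 was dim. Adam23 passed with both normexp settings (limma adjusted p = 0.048 and 0.036), with the mean of its probes (0.0085) and with array weights (0.0093). The remaining tested ADAMs ranged from -0.52 (Adam4) to 1.47 (Adam28). Adam28 passed in 1 of 18 alternatives, without NZO replicate 10 (difference 2.09, limma adjusted p = 0.034), and Adam4 was called lower after quantile normalisation (0.044), in the authors' value table (0.044) and with array weights (0.017).

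Probes of the same gene mostly agreed in sign but not always in size. Of 58 tested member probes 33 rose and 3 fell, against 11.5% and 10.3% of all 24628 tested probes. Of the 58, 6 were above background on no B6-ob/ob array and so entered the test through NZO alone, and all 6 rose. When only probes above background on all 6 arrays were tested, 20 of 38 member probes rose and 2 fell. The share of all probes under this filter was not counted. With the brightest such probe for each gene, 1762 of 14802 genes rose and 1318 fell. Of the 15 genes with several tested probes 14 had probes of 1 sign, the exception being Adam15 (-0.14 and 0.24, neither of which passed). In 8 of the 15 every tested probe passed and in 5 none did. The difference varied by more than 1 between probes in 5 genes (Adam23, Adam33, Adamts2, Adamts7 and Mmp14). Probes of Adamts2 and the second probe of Mmp14 follow, since they show which printed stretch gave which value. With them stand those of Timp1, whose probes differed in their call, and the widely spread probe of Adam5. They are 60 bases long, and the capitals mark the TAA on which an Adamts2 probe ends, a stop codon with no other before it in the frame that begins at the first base. Whether this is the frame of the protein was not looked up.

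Adamts2 upstream probe: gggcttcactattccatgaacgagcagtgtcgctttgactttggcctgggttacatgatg
Adamts2 stop codon probe: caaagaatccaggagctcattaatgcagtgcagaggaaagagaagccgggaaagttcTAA
Mmp14 second probe: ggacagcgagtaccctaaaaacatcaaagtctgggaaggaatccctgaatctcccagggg
Timp1 main probe: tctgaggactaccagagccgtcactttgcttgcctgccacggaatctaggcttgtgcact
Timp1 second probe: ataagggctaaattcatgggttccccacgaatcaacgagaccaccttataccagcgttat
Adam5: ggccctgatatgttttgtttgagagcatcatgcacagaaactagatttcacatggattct

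The stop codon probe of Adamts2 (chr11:50617472-50617531, mm9, plus strand) gave the value of 3.61 above. The upstream probe (chr11:50590188-50590247) was above background on no B6-ob/ob array, which allows only a bound of at least 2.37-fold, and the remaining tested probe, which lies further downstream, gave at least 6.77-fold. The second Mmp14 probe (chr14:55058775-55058834) differed by 0.99 ± 0.24 (limma adjusted p over all probes = 0.032), well under the 2.53 of the brighter probe, and both passed. The second Timp1 probe (chrX:20449905-20449964) differed by 2.65 ± 0.92 and did not pass (0.092), with 1 B6-ob/ob array above background, while the main probe passed over all probes (0.017). When the probes of a gene were averaged, Timp1 did not pass (2.20, limma adjusted p = 0.051). A second probe of Adam23 gave 2.13 and passed where the brighter probe did not, and a second probe of Adam33 gave at least 3.66-fold. The Adam5 probe joins stretches of the minus strand that together span 34057 bases (chr8:25857993-25892049).

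**Figure D4:**
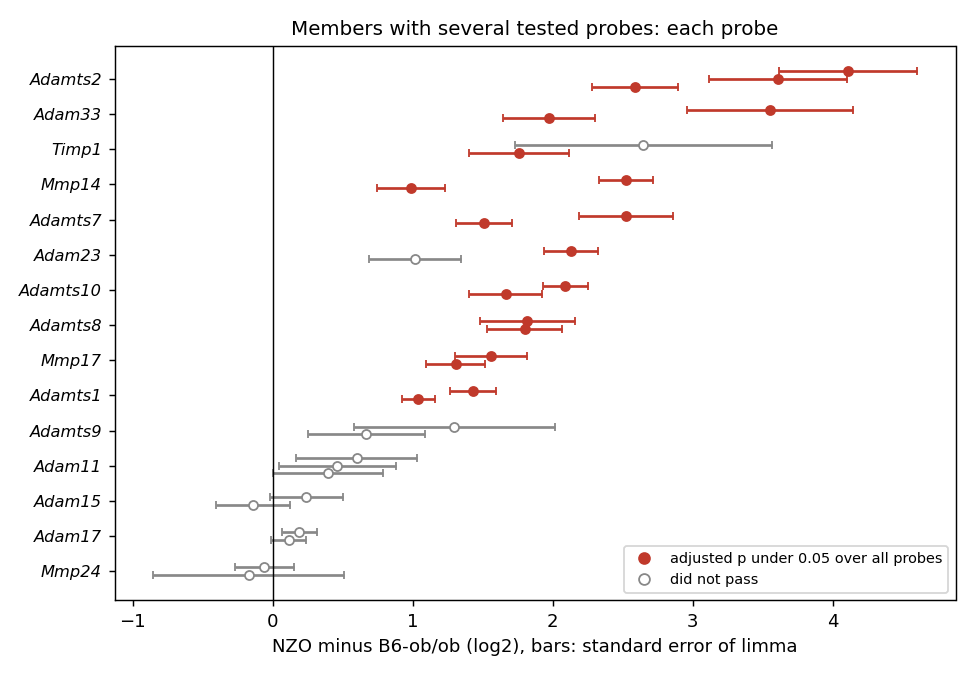
Difference between strains of each tested probe (x axis, log2, NZO minus B6-ob/ob, with the standard error of limma) in the 15 members with several tested probes. Filled points passed over all probes, and the probes of Adam33, Adamts2, Mmp14, Adam23 and Adamts7 lie more than 1 apart.

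The arrays of each strain were not alike. Among the 23 members that rose, B6-ob/ob replicate 4 was the highest of its strain in 16 (69.6%), against 58.7% of the 2165 genes that rose in all. Each array belongs to 1 of 3 slides, and slide 1 held NZO replicate 12 alone. Slide 2 held NZO replicate 10 and B6-ob/ob replicate 4, and slide 3 held NZO replicate 11 and B6-ob/ob replicates 5 and 6. The 26 members that passed kept their direction within both slides, as they had to, since in each of them the arrays of the strains did not overlap. The members' median difference was 0.92 within slide 2 and 1.25 within slide 3. Mmp2 differed by 2.63 and 4.12 within slides 2 and 3 and by 3.48 with slide as a fixed block. The same values were 2.10, 2.88 and 2.55 for Mmp14, and 2.35, 4.07 and 3.33 for Adamts2, all of which passed with the block. Within slides 2 and 3 Timp1 differed by 1.27 and 2.59, Timp4 by 0.53 and 2.75, and Adamts4 by 0.97 and 3.49.

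The size of many differences depended on the background correction. The normexp alternative adds an offset of 50 to each corrected intensity, which by construction draws dim values together. It moved the difference of 18 of the 26 members that passed by more than 1.5 times under at least 1 of its scalings, and 14 of these 18 passed under both. The other 8, Adam8, Adam9, Adamts1, Adamts2, Mmp14, Timp1, Timp2 and Timp3, moved less. With quantile normalisation after normexp, Adamts10 differed by 0.71, Adamts15 by 1.39, Mmp11 by 0.59 and Adam33 by 0.42, and all 4 passed. Among the other genes of the pathway named below, the same setting gave 2.29 for Fn1, 1.35 for Notch2, 0.66 for Tgfa, 0.56 for Pcsk5 and 0.40 for Adamtsl4, all of which passed.

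Markers of other pancreatic cell types moved with these genes. Of 13 stellate-cell, pericyte and fibroblast markers 12 rose, among them Pdgfra (limma adjusted p = 0.0011), which was above background on no B6-ob/ob array and at least 5.48-fold higher in NZO. Their summed linear level was 72.0 to 80.5 on the NZO arrays and 19.0 to 29.4 on the B6-ob/ob arrays, in multiples of the array's 75th percentile. Of 16 acinar markers 14 rose, with a summed level of 1557 to 2302 against 233 to 781, and of 9 ductal markers 6 rose (161 to 232 against 86.8 to 262, which overlap). The mean log2 level of the ductal markers did not overlap (0.33, 0.69 and 0.18 in NZO against -0.98, -1.78 and -2.40 in B6-ob/ob). With slide as a fixed block the acinar Cpa1 and Cel did not pass (limma adjusted p = 0.099 and 0.13), while Ctrb1 did (0.032). Cpa1 and Cel also did not pass without NZO replicate 10, 11 or 12 or B6-ob/ob replicate 5 (0.061 to 0.12). The acinar, ductal and stromal mean levels were each highest on replicate 4 among the B6-ob/ob arrays. Of 9 tested macrophage markers 5 rose (19.6 to 40.6 against 9.22 to 11.6). Adgre1 (0.23, limma adjusted p = 0.64) and Csf1r (0.45, 0.17) did not pass, though Csf1r did with array weights (0.54, 0.019). Cd68 passed (1.07, 0.031), but not without NZO replicate 10 or 11 or B6-ob/ob replicate 4 or 5 (0.073 to 0.11). It also did not pass without a filter on dim probes (0.057) or after normexp with quantile normalisation (0.056). Of the neutrophil markers S100a8, Mpo, Elane, Csf3r, Camp and Ngp were above background on no array, and S100a9 did not pass, with its highest level on B6-ob/ob replicate 4 (0.11) and its lowest on B6-ob/ob replicate 5 (-4.03). Of 3 tested mast cell markers 2 rose, of 8 endothelial markers 2 rose, and of the lymphocyte markers only Cd3e was tested and it rose (0.54). Among all genes tested 13.2% rose and 9.0% fell. The hormone genes of the islet, Ins1, Ins2, Gcg, Sst and Ppy, were well above background on all 6 arrays and did not pass. Of 6 beta cell markers 5 did not pass and Nkx6-1 fell (-0.81 ± 0.17). Summed beta cell levels were 2081 to 2500 in NZO and 1958 to 2537 in B6-ob/ob. The part of these cell types in the members' differences was not tested, and in such bulk samples fewer cells of a type and less RNA per cell cannot be told apart.

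**Figure D5:**
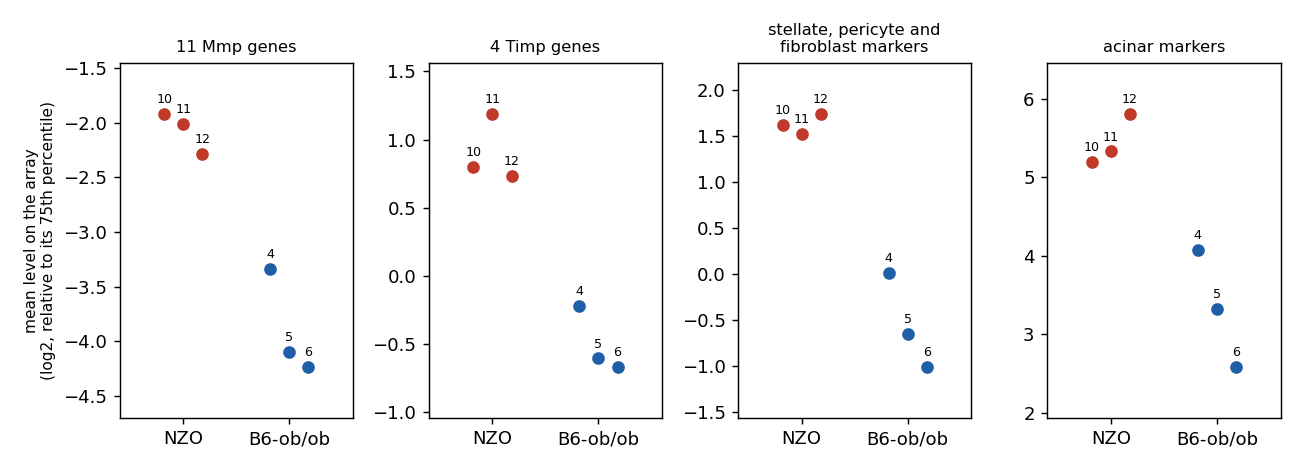
Mean level on each array (y axis, log2 relative to the 75th percentile of the array) over the 11 tested Mmp genes, the 4 Timp genes, 13 stellate, pericyte and fibroblast markers and 16 acinar markers, with replicate numbers beside the points. In each panel the 3 NZO arrays lie above the 3 B6-ob/ob arrays, and replicate 4 is the highest of the B6-ob/ob arrays.

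The genes of the matrix proteins on which these proteases act were mostly higher in NZO. Of 19 tested matrix substrates 15 rose, while 13.2% of all genes rose, and the list's median difference was 1.88. Fibronectin (Fn1) differed by 4.80 ± 0.40 (limma adjusted p = 0.00078), with 1 B6-ob/ob array above background. The collagen genes Col1a1 (3.89 ± 0.67) and Col3a1 (3.05 ± 0.42) and the collagen-binding proteoglycan lumican (Lum, 3.61 ± 0.54) passed as well. These 3, like Col1a2 and Dcn, are on both this list and the stromal marker list, so the counts of these lists overlap. The cartilage proteoglycan Acan (0.10 ± 0.40) and the cartilage collagen Col2a1 (-0.20 ± 0.20) did not pass, and the versican gene Vcan, a main target of ADAMTS1 and ADAMTS5, was above background on no array. The count of 15 was 9 without NZO replicate 10 or 12 and 8 without B6-ob/ob replicate 5.

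Of 18 tested activators, inhibitors and partners of MMPs 5 rose, beside 13.2% of all genes, with a list median of 0.48. They were Tfpi2, an inhibitor of plasmin and MMPs (at least 4.38-fold higher, above background on no B6-ob/ob array), the proprotein convertase Pcsk5 (1.91 ± 0.35), the procollagen proteinase enhancer Pcolce (1.90 ± 0.32), tissue plasminogen activator Plat (1.40 ± 0.18) and the clearance receptor Lrp1 (1.38 ± 0.11). The MMP activator furin (Furin, 0.26 ± 0.13), the membrane inhibitor Reck (0.14 ± 0.16) and the MMP inducer basigin (Bsg, -0.16 ± 0.18) did not pass. Neither did urokinase (Plau, 2.05 ± 0.68) and its receptor (Plaur, 1.79 ± 0.55), each highest on replicate 4 among the B6-ob/ob arrays. Without B6-ob/ob replicate 4 the count was 8.

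For Adam10 and Adam17, whose own levels did not pass, the trafficking partners and substrates give the wider pathway. Of 8 tested trafficking partners 4 rose and 1 fell (list median 0.53), beside 13.2% and 9.0% of all genes. The iRhom genes Rhbdf1 (1.51 ± 0.16, limma adjusted p = 0.0017) and Rhbdf2 (1.20 ± 0.22, limma adjusted p = 0.012), which carry ADAM17 to the cell surface, both rose. Frmd8, which stabilises iRhoms, rose by 0.60 ± 0.12, as did the ADAM10-binding tetraspanin Tspan14 (0.60 ± 0.15), while Tspan33 fell by 0.62 on the log2 scale. With slide as a fixed block Frmd8 and Tspan33 did not pass (limma adjusted p = 0.074 and 0.091). This count of 5 was 3 without NZO replicate 10 and 2 without NZO replicate 11 or B6-ob/ob replicate 5. Of 16 tested shed substrates 7 rose and 1 fell (median 0.34), beside the same shares of all genes. The 4 largest rises were in Notch2 (2.30 ± 0.17), the tumour necrosis factor receptor Tnfrsf1b (1.96 ± 0.41), the growth factor Tgfa (1.85 ± 0.21) and the chemokine Cxcl16 (1.76 ± 0.32). Tnfrsf1b did not pass without NZO replicate 10 or 11 or B6-ob/ob replicate 5 (limma adjusted p = 0.065, 0.068 and 0.075), nor Cxcl16 without the latter (0.055). Tnfrsf1b was 0.87 as the mean of its probes and 1.0 in the authors' value table, and did not pass in either (limma adjusted p = 0.13 and 0.12). Their count of 8 was 4 without NZO replicate 10 or 11, 3 without B6-ob/ob replicate 5 and 5 without replicate 6.

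Of 8 tested ADAMTS-like genes and other metzincins 3 rose (median 0.40), beside 13.2% of all genes. They were Pappa, a protease of insulin-like growth factor binding proteins (at least 4.19-fold higher), Adamtsl1 (at least 2.91-fold higher) and Adamtsl4 (1.70 ± 0.19). Pappa and Adamtsl1 were above background on no B6-ob/ob array. Adamtsl1 did not pass without any 1 array other than B6-ob/ob replicate 4 (limma adjusted p = 0.056 to 0.092), nor after normexp correction (0.079 and 0.056). Of 15 factors of the AP-1, ETS and RUNX families 4 rose (median 0.42), beside 13.2% of all genes. Runx2, a factor of bone and stromal cells that was above background on no B6-ob/ob array, was at least 1.63-fold higher, but did not pass after normexp correction (0.26 and 0.43, limma adjusted p = 0.061 and 0.063). Ets1 differed by 1.74 ± 0.14, Fosl2 by 1.39 ± 0.13 and Junb by 0.77 ± 0.18, the last of which did not pass without NZO replicate 10, 11 or 12 or B6-ob/ob replicate 4 or 5 (limma adjusted p = 0.066 to 0.12), nor with slide as a fixed block (0.11) or 4 other settings (0.059 to 0.18). Fos (-0.10 ± 0.68) and Jun (0.29 ± 0.46), the classical pair at the AP-1 site, did not pass. The table holds a window for each annotated start. Among the members, the AP-1 letters were in 1 of 15 promoter windows of genes that rose (6.67%, that of Mmp7), in 4 of 13 windows of tested genes that did not pass (30.8%) and in 5 of 17 windows of genes too dim to test (29.4%), beside 6.75% of all 32851 windows. The 15 windows cover only 13 of the 23 members that rose. Besides Adam25, the 4 windows are of Mmp12, Mmp13 and Mmp3 of the chromosome 9 cluster. Besides Adam19 and Adam29, the 5 are of Mmp1a, Mmp10 and Mmp20 of that cluster. A link between the letters and the calls was not tested.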

How the data were processed

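Per the labels, islet RNA was copied into Cy3-dyed cRNA and hybridised in 1 colour. The authors deposited linear scanner intensities, which Feature Extraction had background-subtracted and detrended (release 10.5.1.1 in the file headers, 9.1 in the submitters' processing notes). The authors' value table of intensities served as an alternative only. It is linear and uncentred, with column medians of 21.3, 21.4 and 21.45 under NZO labels and 22.1, 21.4 and 22.4 under B6-ob/ob labels. For that use its sign was turned, since its columns match arrays of the opposite strain. How this mismatch arose stays unknown.

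After removal of control spots and of 61 to 76 flagged spots an array, between 23621 and 24710 probes per array were well above background and none was saturated. Precision is limited by how few arrays there are. From each probe's mean log2 intensity the 75th percentile of its array was subtracted. Probes well above background on 3 or more arrays were tested (24628), and the brightest of them stood for its gene name (16418 genes). The two-sided test was limma's (version 3.58.1, R 4.3.3, lmFit then eBayes), adjusted by Benjamini-Hochberg with a threshold of 0.05. Every tested member had a value on all arrays.

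The rule for named genes took every member that passed, all Timp genes, Mmp2, Mmp9, Mmp14, Adam10 and Adam17, and up to 4 called genes of each list with the largest differences. Other named genes were chosen after their values were seen. Members and lists were chosen with earlier results of these data known. ADAMs were grouped from general knowledge, since protein sequences were not used here. Positions of probes are those of the files (mm9), and promoters are from RefSeq (GRCm38.p6), where 41 of 73 members matched. Of the member names 71 are RefSeq symbols.

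Simulated strain differences of 1, 2 and 3 (log2) over these 16418 genes were recovered in 49.3%, 76.1% and 89.4% of changed genes, with 6 calls among 16218 unchanged ones. Only 67, 67 and 66 genes were changed, while 22.2% of all genes were called in the data. The simulated noise was drawn for each gene and array apart, with no shift shared by the genes of an array. These rates may therefore not hold for the data. The alternatives changed the background correction, the scaling, the source of the intensities, the filter, the choice of probe, the handling of slide and of variance, and left out each array once.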

Additional observations from a re-analysis of the deposited data

How the results depend on the processing

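Of the 26 members that passed, 17 kept their call in all 19 alternatives that gave a test and that tested them, 9 lost it in at least 1, and none changed sign in any of these. Leaving out an array could not change a sign, since the strains did not overlap in these members. The members' count ranged from 17 to 28 higher over these alternatives. No paired analysis was possible because the strains share no replicate number, and slide entered as a block instead. Over all genes, 3616 were higher and 3307 lower with array weights, 814 were lower with slide as a fixed block, and leaving out 1 array gave 1298 to 2217 higher and 635 to 1560 lower. With normexp background correction and 75th percentile scaling 0 members and 0 member probes were lower by limma's adjusted p (1 each at an unadjusted p under 0.05), where Adam5, Adamts6 and Adamts18 differed by -0.35, -0.17 and -0.24, against 2 to 4 members lower in the other alternatives. The members' median of 1.16 was 0.59 with normexp and quantile normalisation, 0.71 with normexp and the 75th percentile, 0.38 without a filter (73 genes) and 0.92 within slide 2, and the cause was not tested. With probes above background on all 6 arrays, 20 of 38 member probes were higher and 3 MMP partners passed with limma. Of 5 ADAMTS-like genes and other metzincins tested there, 0 passed with limma (also 0 at an unadjusted p under 0.05). Pappa and Adamtsl1, above background on no B6-ob/ob array, could not enter under this filter. Array weights gave 11 MMP partners and 9 AP-1, ETS and RUNX factors, the latter being 2 with normexp and quantile normalisation. Trafficking partners numbered 2 with slide as a fixed block, and shed substrates 5 without a filter. Leaving out 1 array gave 5 to 8 MMP partners, 2 to 5 trafficking partners, 3 to 8 shed substrates and 8 to 15 matrix substrates. Small differences that had not passed changed sign: leaving out 1 array gave -0.045 to 0.76 for Adam11, -0.47 to 0.34 for Adam1a, -0.060 to 0.36 for Adamts14, -0.15 to 0.62 for Mmp13, -0.20 to 0.14 for Mmp24, -0.050 to 0.52 for the macrophage marker Adgre1 (Emr1) and -0.019 to 2.05 for the neutrophil marker S100a9. Adam1a was 0.042 with normexp and the 75th percentile, Mmp24 was 0.041 there, 0.11 with slide as a fixed block and 0.0093 with array weights, and Adamts14 was -0.0099 with normexp and quantile normalisation and -0.012 with slide as a fixed block. Bounds against a strain with no array above background rest on signal close to background, and normexp lowered the higher bound of Adamts2 from 6.77 to 1.88 with quantile normalisation and to 2.06 with the 75th percentile.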

Other observations

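The other promoter letters looked for in the same 250 bases, on both strands, were common in members and elsewhere. GGAAG, the core of ETS sites, was in 31 of 46 member windows (67.4%) and in 64.1% of all windows, and ACCACA, a RUNX site, was in 8 (17.4%) and 14.0%. TATAAA was in 9 member windows (19.6%), against 12.4% of all, and 5 of these 9 are of genes too dim to test. TGACGTCA was in 1.55% of all windows and in no member window.

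Of the 32 members too dim to test, 4 were above background on 1 or 2 arrays, and 3 of them allow a bound. Adamts16 was above background on 2 of 3 NZO arrays but on none of B6-ob/ob, and was at least 1.95-fold higher in NZO. Adam19, a sheddase of neuregulin, was above background on 2 NZO arrays with 1 of its 3 probes (at least 1.28-fold higher). Mmp16, a membrane-type MMP, rose over background on B6-ob/ob arrays only (2 of 3), and was at least 1.07-fold lower in NZO.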
